A study of Rattus norvegicus with 4 samples.

Results

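Genes for granule proteins, antimicrobial proteins and S100 proteins were followed in rat alveolar macrophages, 10 genes in all: Lyz2, Camp, Lcn2, Elane, Slpi, Retn, S100a8, S100a9, S100a4 and S100a6. They were chosen by name, through the accession that the array gives for each probe, and all 10 had a probe, out of 16581 genes with a symbol on the array. The cells were NR8383, a permanent line of normal rat alveolar macrophages, so a single line stands here for the cell type. They were taken at 20 passages, held in flasks for 48 h and exposed for 4 h to NRCWE001, a titanium dioxide material, at 3 cm2 of particle surface per cm2. All 4 samples carried that exposure (replicates 1 to 4, biological replicates by the series' design text), and unexposed cells were not analysed here. No value below therefore says whether the particles raised or lowered a transcript.

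Granule and antimicrobial proteins are the stored and secreted weapons of phagocytes: lysozyme cuts bacterial cell walls, cathelicidin breaks membranes, lipocalin-2 withholds iron-loaded siderophores, and neutrophil elastase is a protease that the inhibitor SLPI holds in check. S100 proteins are small calcium-binding proteins, of which S100A8 and S100A9 pair to form calprotectin, a metal-binding complex of myeloid cells. In the lung, lysozyme and lipocalin-2 are also made by macrophages, while elastase, cathelicidin and calprotectin are best known from neutrophils and their precursors.

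Transcripts of 8 of the 10 genes were well above background on all 4 arrays, against 45.7% of all named genes. Those 8 were Lyz2, Camp, Lcn2, Slpi, Retn, S100a8, S100a4 and S100a6. Elane and S100a9 did not reach that flag on any of them. Detection rests on the scanner software's own flag for such signal, which had to be set on over 0.5 of a probe's spots. The members were proposed with results of these arrays known, so their share is given as a description without a test. Levels are log2 signals relative to each array's 75th percentile, which was 433, 347, 554 and 414 intensity units on replicates 1 to 4. A level of one probe is not set against that of another, because probes differ in brightness for reasons other than transcript amount.

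**Figure D1:**
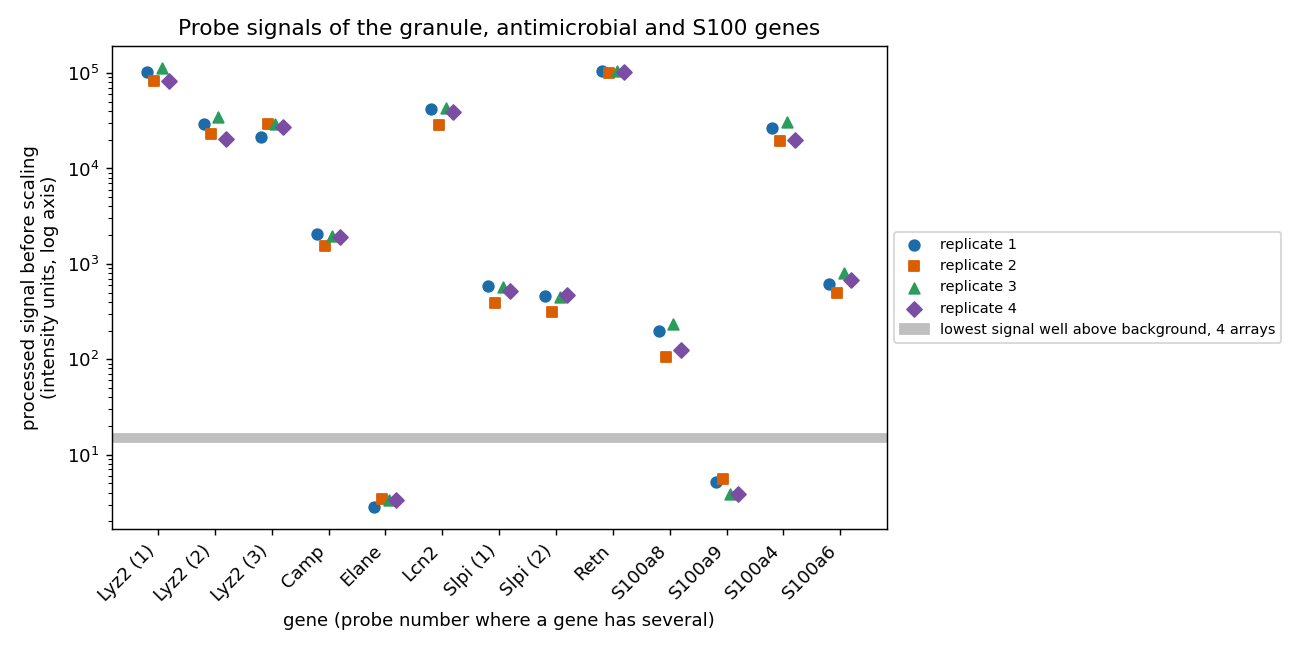
Processed signal before scaling, in intensity units on a log axis, of every probe of the 10 genes, with a point per replicate (4 cultures, 1 array each). The grey band spans the lowest signals flagged well above background on the 4 arrays (13.5 to 16.6 units), and only the points of Elane and S100a9 lie under it.

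Lyz2 codes for lysozyme M, the main lysozyme of macrophages, and was measured by 3 probes that cite the same transcript. All 3 were detected on every array. On the brightest probe (probe 1, printed on 10 spots) the level was 7.89, 7.89, 7.68 and 7.63 on replicates 1 to 4, with a mean of 7.77 ± 0.14 (SD, n = 4). Replicates 1 and 2 were the higher ones there, but not before scaling or with quantile normalization, where replicate 3 was highest and replicate 2 lay below the mean. Probe 2, printed on 2 spots, lay at 6.07, 6.05, 5.97 and 5.64 and was lowest on replicate 4. Probe 3, printed on 10 spots, lay at 5.64, 6.40, 5.73 and 6.04 and was highest on replicate 2 and lowest on replicate 1. Over all spots used, the 3 probes moved to the same side of their means on 1 of the 4 arrays, replicate 2. Among 178 genes with 3 detected probes, 11.2% had probes that did so on all 4 arrays. Rat carries a neighbouring lysozyme gene, Lyc2, which the RefSeq gene table lists with Lyz2 as a synonym, and whether these probes read transcripts of both was not tested.

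The disagreement of probe 3 was largest on replicate 1, where its single spots differed by position. There its 4 spots in columns 1 to 72 of the array read 11139 to 20184 units (mean 14428), and its 6 spots beyond column 72 read 24228 to 31534 (mean 28123). On replicate 2 the spots of the same parts averaged 29266 and 29268 units, on replicate 3 they averaged 30777 and 28438, and on replicate 4 they averaged 28899 and 25643. The left part lay 0.96 below the right part on the log2 scale on replicate 1, the 9th lowest of 988 probes printed 10 times, whose median was 0.06. Probe 1 of Lyz2 did not share this: its 5 left and 5 right spots on replicate 1 averaged 105114 and 100433 units. Before the scanner software's correction for position, however, they averaged 82765 and 112469, and the correction multiplied single left spots by up to 1.67. From spots beyond column 72 alone, a boundary named in an earlier look at these arrays, probe 3 deviated by 0.01, 0.39, -0.33 and -0.06 on replicates 1 to 4. Its low value on replicate 1 was then gone. Its unscaled signal on those spots differed 1.14-fold between the highest and the lowest array, against 1.38-fold for probe 1 and 1.73-fold for probe 2. Probe 1 deviated by 0.10, 0.11, -0.10 and -0.12 on those spots, and probe 2, with 1 spot there, by 0.20, 0.10, 0.04 and -0.33. The probes of Lyz2 then lay on the same side of their means on every array but replicate 3. The part of array position and of probe sequence in these differences was not tested.

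**Figure D2:**
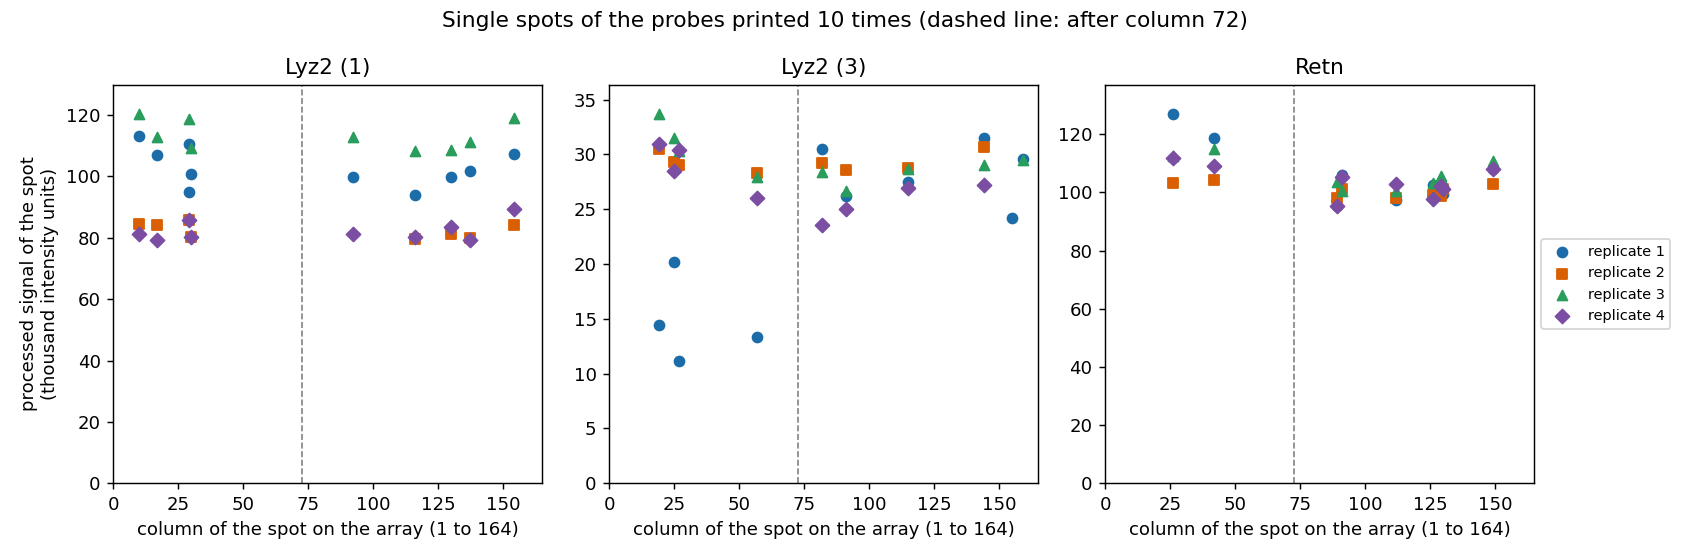
Processed signal of single spots, in intensity units (axis labelled per 1000), against the column of the spot on the array, for Lyz2 probes 1 and 3 and for Retn, with colours for the 4 replicates and outlier spots left out. On replicate 1 the 4 left spots of Lyz2 probe 3 lie between 11139 and 20184 units, under all its other spots, while those of probe 1 and Retn do not drop.

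Camp codes for cathelicidin, whose cleaved end is a membrane-active antimicrobial peptide. Its single spot read 2063, 1550, 1968 and 1910 units, which gave levels of 2.25, 2.16, 1.83 and 2.21. Its mean was 2.11 ± 0.19 (SD, n = 4). Replicate 3 was the low one, also with quantile normalization, while replicate 2 was lowest before scaling. Lcn2, the gene of lipocalin-2, read 41930, 28871, 43089 and 38896 units and lay at 6.60, 6.38, 6.28 and 6.55. The mean was 6.45 ± 0.15, with replicates 1 and 4 above replicates 2 and 3. Before scaling replicate 3 was highest, and with quantile normalization it lay above replicate 4. Its only spot was printed in the left part of the array.

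Elane, the gene of neutrophil elastase, was the protease of the group and gave no usable signal. It read 2.83, 3.40, 3.35 and 3.35 units, while the lowest signals well above background were 13.5, 16.6, 16.6 and 16.3 units on the same arrays. Slpi codes for secretory leukocyte protease inhibitor, which blocks elastase and is itself antimicrobial. Its transcript was detected by both of its probes on every array. The brighter probe lay at 0.42, 0.17, 0.04 and 0.34 (mean 0.24 ± 0.17), and the other at 0.09, -0.15, -0.30 and 0.17 (mean -0.05 ± 0.22, both SD, n = 4). The 2 probes deviated to the same side on all 4 arrays, which held for 23.1% of 1100 genes with 2 detected probes, and their deviations differed by a median of 0.05 against 0.13 over those genes. Replicates 1 and 4 were the higher ones on each probe. On replicate 1 the software's correction for position multiplied the only spot of the less bright probe by 1.75, and that of the brighter probe by 1.09. Before that correction and before scaling, the less bright probe read 264, 299, 410 and 437 units on replicates 1 to 4, lowest on replicate 1. The brighter probe then read 533, 402, 566 and 519 units. The part of the correction in the agreement of the 2 probes was not tested. The inhibitor was thus detected here, while its best-known target was not, on 1 probe with 1 spot. For Elane, a probe that fails to bind cannot be told apart from a missing transcript.

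Retn codes for resistin, a small secreted protein known from fat tissue in rodents and from myeloid cells in humans. Its probe, printed on 10 spots, gave almost the same signal on every array before scaling: 105699, 100724, 106049 and 103649 units, a 1.05-fold difference between highest and lowest. The 75th percentiles used for scaling differed 1.60-fold. After scaling the level was 7.93, 8.18, 7.58 and 7.97, with a mean of 7.92 ± 0.25, highest on replicate 2, where the percentile was lowest, and lowest on replicate 3, where it was highest. Its SD was 0.03 before scaling, 0.25 after it and 0.06 with quantile normalization. Other very bright probes did the same: of 233 with a mean signal of at least 50000 units, 205 (88.0%) varied less before scaling than after it, against 18.6% of all 14518 detected probes. The median deviation of those 233 probes was 0.19 on replicate 2 and -0.28 on replicate 3, beside 0.27 and -0.34 for Retn. Lyz2 probe 1, of like brightness, did not, with an SD of 0.23 before scaling and 0.14 after. No spot was saturated by the software's flag. The part of a limited range at high brightness in the levels of Retn was not tested.

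The S100 genes split within the calprotectin pair. S100a8 was detected on all 4 arrays and S100a9 on none, although these are direct neighbours on the chromosome. S100a8 read 196, 106, 232 and 126 units, and lay at -1.14, -1.71, -1.25 and -1.72. Its mean was -1.46 ± 0.30 (SD, n = 4), the widest spread of the 8 detected genes, with replicates 1 and 3 above replicates 2 and 4 before and after scaling. S100a9 read 5.18, 5.50, 3.91 and 3.83 units. Its spot passed the software's more lenient flag, positive and significant, on replicate 2 alone. With 1 probe for each of these genes, a probe that fails to bind cannot be told apart from a missing transcript.

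S100a4, a protein of motile cells that binds myosin, and S100a6, also called calcyclin, were detected on every array with narrower spreads. S100a4 read 26391, 19187, 30555 and 19942 units and lay at 5.93, 5.79, 5.78 and 5.59 (mean 5.77 ± 0.14). Replicate 4 was lowest and replicate 1 highest, while replicate 3 was highest with quantile normalization and before scaling, where replicate 2 was lowest. S100a6 read 610, 495, 802 and 683 units and lay at 0.49, 0.51, 0.53 and 0.72, with a mean of 0.57 ± 0.11. Replicates 1 to 3 lay within 0.04 of each other there, and replicate 4 was above them, past the critical value of Dixon's ratio, as were 5.46% of all genes. That call depends on the percentile: with outlier spots included in it, S100a6 was not past the value. The software's correction for position multiplied its only spot by 1.36 on replicate 4, against 1.11, 1.14 and 1.20 on replicates 1 to 3.

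Promoter sequence is shown for S100a4, S100a9, Lcn2 and Lyz2. RefSeq's promoter table (build GRCr8) matched 7 of the 10 genes by symbol: Camp, Lcn2, Lyz2, Retn, S100a4, S100a6 and S100a9. The 250 bases before the start of transcription were searched on both strands for 8 patterns, and the 2 shown were picked after their matches had been seen. They are TATAAA, the core of the TATA box, and TTGCNNAA, a short form of the site of C/EBP factors, which act on many myeloid genes. TATAAA was found in S100a4 and S100a9, and in 12.9% of 33469 promoters of the same length. TTGCNNAA was found in Lcn2 and Lyz2, and in 9.22% of them. S100a4 and S100a9 are shown because they carry the same TATA box letters, 31 and 42 bases before the start, and S100a4 was detected while S100a9 was not. Lcn2 and Lyz2 are shown because both were detected and share the other motif, beginning 191 and 203 bases before the start. The Lcn2 match reads along the gene and the Lyz2 match on the opposite strand, so its printed capitals are the reverse complement of the pattern. Capitals mark the match, each sequence reads 5′ to 3′ along its gene, and the windows are chr2:178388279-178388528 (+ strand), chr2:178490623-178490872 (- strand), chr3:36081781-36082030 (- strand) and chr7:54798012-54798261 (- strand).
S100a4: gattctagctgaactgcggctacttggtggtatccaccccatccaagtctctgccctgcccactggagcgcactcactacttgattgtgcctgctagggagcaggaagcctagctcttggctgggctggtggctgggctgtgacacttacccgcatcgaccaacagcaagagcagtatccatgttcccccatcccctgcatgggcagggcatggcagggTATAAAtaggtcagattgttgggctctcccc
S100a9: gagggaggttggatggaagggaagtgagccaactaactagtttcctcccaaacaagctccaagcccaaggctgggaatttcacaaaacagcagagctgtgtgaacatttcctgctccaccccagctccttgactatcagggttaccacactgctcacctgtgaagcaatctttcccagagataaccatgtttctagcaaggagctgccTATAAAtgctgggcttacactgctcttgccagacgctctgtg
Lcn2: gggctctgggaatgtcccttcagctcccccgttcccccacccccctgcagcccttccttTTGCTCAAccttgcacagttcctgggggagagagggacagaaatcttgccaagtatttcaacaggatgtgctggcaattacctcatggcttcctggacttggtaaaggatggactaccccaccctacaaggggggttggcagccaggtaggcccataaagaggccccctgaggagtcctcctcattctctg
Lyz2: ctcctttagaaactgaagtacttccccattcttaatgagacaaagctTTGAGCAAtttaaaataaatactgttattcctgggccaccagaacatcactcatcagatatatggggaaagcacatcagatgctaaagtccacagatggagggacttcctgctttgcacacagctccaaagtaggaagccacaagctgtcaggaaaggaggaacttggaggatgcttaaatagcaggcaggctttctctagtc
The matches describe letters only, and the arrays hold no measurement of factor binding. The 2 marked motifs did not overlap in these windows. The other 6 patterns were TTGCNNAAT (2.26% of all promoters), GAGGAAG (10.2%), TGACGTCA (1.59%) and TGANTCA (6.34%), which none of the 7 genes held, AGGAAGT (7.08%), held by Lyz2, and a short form of the NF-kB site (42.3%), held by Camp, Lcn2, Retn, S100a4 and S100a6. TTGCNNAAT contains TTGCNNAA, and GAGGAAG and AGGAAGT share 6 letters.

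Variation between the 4 arrays was compared with that of other genes of like level. With 1 array per culture, differences between cultures and between arrays cannot be told apart. None of the 8 detected members was called more variable when its variance was set against limma's prior (adjusted p under 0.05 over 7570 genes), where 0.515% of all genes were. None reached 0.05 without adjustment either, where 6.67% of all genes did. S100a8 came closest, with an SD 1.52 times the prior SD (adjusted p = 0.912 by limma, unadjusted p = 0.100). Camp, Retn and Slpi followed, with SDs 1.24, 1.11 and 1.05 times the prior. Lcn2, S100a4, S100a6 and Lyz2 lay below it, at 0.74, 0.73, 0.66 and 0.62 times. Without replicate 3 the SD of Camp fell from 0.19 to 0.05 and that of Retn from 0.25 to 0.14. Without replicate 4 the SD of S100a6 fell from 0.11 to 0.02 and that of S100a4 from 0.14 to 0.08. These were the arrays furthest from each gene's mean, picked after the values were seen, and leaving such an array out narrows a spread by construction. Other omissions widened it, to 0.23 for Camp without replicate 2 and 0.305 for Retn without replicate 1. By Dixon's ratio no array stood apart for Camp, Retn or S100a4. The median SD of the 8 genes was 0.159, and that of all genes tested was 0.163. With 4 arrays, members that were not called are not shown to be stable. The software's own error estimate came to 0.14 on the log2 scale for each of the 8 detected members, whatever their brightness. The SD of S100a8 was 2.11 times that estimate and the SD of S100a6 was 0.762 times. Measured SDs between spots differed far more, at 0.03 for Retn on replicate 2 and 0.55 for Lyz2 probe 3 on replicate 1. The near-constant estimate is therefore not a noise level measured for each gene, and neither ratio shows a spread above such noise.

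The arrays ranked the members unevenly. Replicate 1 was highest for 5 of the 8 genes (Camp, Lcn2, Slpi, S100a8 and S100a4), where 25.7% of all genes were highest there. Replicate 3 was lowest for 4 of the 8, beside 45.3% of all genes, and highest for none, beside 19.0%. Replicate 4 was lowest for 3, Lyz2, S100a8 and S100a4, beside 16.2% of all genes. The count for replicate 1 was 5 with normexp background correction, beside 32.5% of all genes. It was 6 with the percentile of detected probes as the reference (24.1% of all genes), 4 with quantile normalization (26.4%) and 2 before scaling (11%). Replicate 3 was lowest for 6 with the percentile of distinct probes, beside 53.9% of all genes. With quantile normalization it was lowest for 3 and highest for 2, beside 38.3% and 20.5% of all genes. Before scaling, replicate 3 was highest for 6 of the 8 and replicate 2 lowest for 7, beside 82.1% and 81.5% of all genes.

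**Figure D3:**
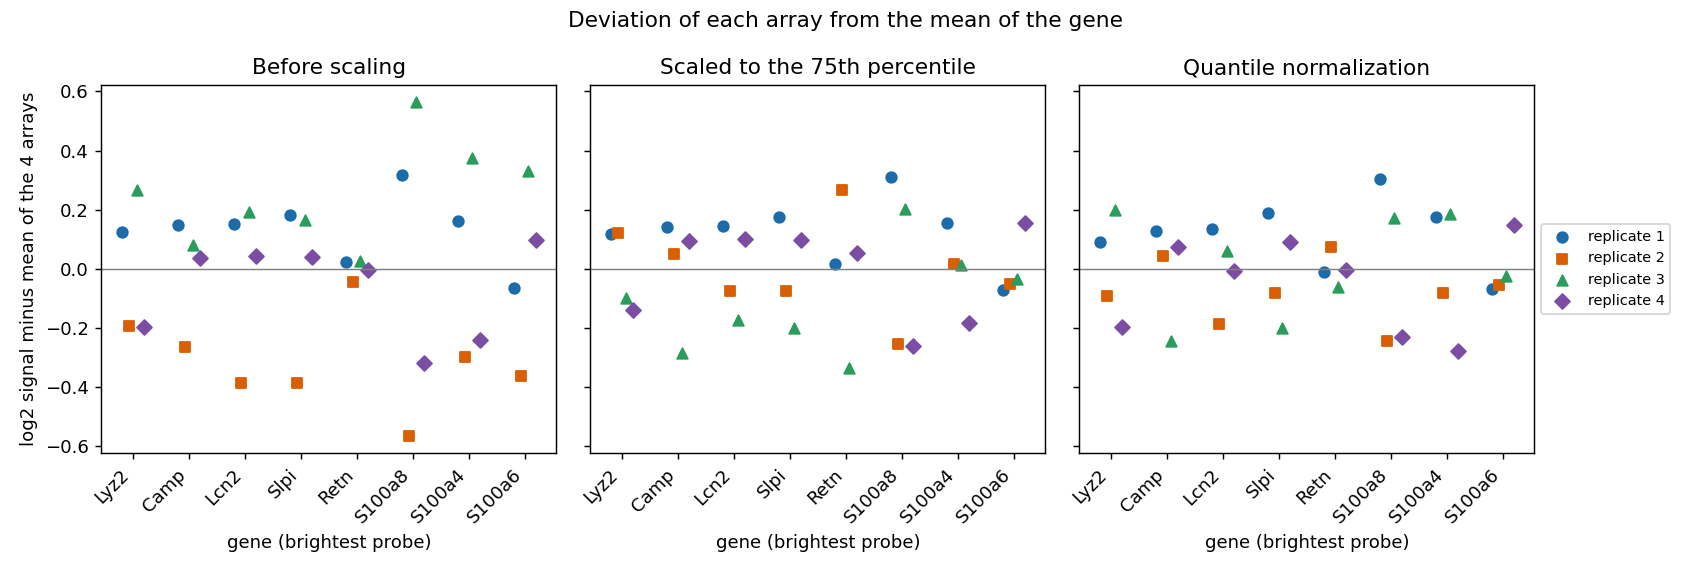
Deviation of each array from the mean of the 4 arrays, in log2 units, for the brightest probe of the 8 detected genes, with a point per replicate, before scaling (left), scaled to the 75th percentile (middle) and after quantile normalization (right). Retn spans little before scaling (SD 0.03) and more after it (0.25), and S100a8 keeps replicates 1 and 3 above replicates 2 and 4 in all 3 panels.

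Related genes were read from lists of the same families, drawn up with earlier results of these arrays known, and the counts below stand beside the 45.7% of all named genes that were detected on all 4 arrays. Of 11 measured S100 genes of the list, 3 were detected on all 4 arrays. They were S100a10 (3.69 ± 0.16, SD, n = 4), the partner of annexin A2, S100a11 (4.60 ± 0.14) and S100a13 (-2.65 ± 0.14), and S100a3 was detected on 2 arrays. In the S100 cluster on chromosome 2, detected genes stood among undetected ones: S100a4 and S100a6 lie on either side of S100a5, which was not well above background, and S100a7a, also undetected, lies between S100a6 and S100a8. The other 7 of the list were not well above background, and neither were S100a7a and S100a7l2, which the list did not hold.

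Genes of the list of other neutrophil granule proteins were nearly all undetected, and the list also held the eosinophil granule genes Epx and Prg2. Of 13 measured, Mmp9, the gelatinase gene that macrophages also use, was the one detected on all arrays (0.39 ± 0.20), and the other 12, among them Ltf, Prtn3, Ctsg and Ngp, were not well above background on any. Of 13 measured defensins and other antimicrobial genes, 2 were detected: the phagosomal metal transporter gene Slc11a1 (2.61 ± 0.08) and the pore-forming protein gene Mpeg1 (-3.21 ± 0.32). Retnla, Retnlb and Retnlg, the other resistin family genes, were likewise undetected.

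Receptors, partners and inhibitors of the members were detected on all 4 arrays in 10 of 12 cases, against 45.7% of all named genes. For calprotectin these were the receptor genes Tlr4 (-2.33 ± 0.38) and Bsg (3.26 ± 0.13), while Ager, the receptor RAGE, was detected on 3 arrays. For S100a10 it was Anxa2 (6.74 ± 0.07), for lipocalin-2 the receptor gene Slc22a17 (2.27 ± 0.15), and for resistin the proposed receptor gene Cap1 (1.59 ± 0.30). Elastase inhibitors and SLPI partners were represented by Serpinb1a (2.87 ± 0.08), Grn (6.19 ± 0.15) and Plscr1 (-2.47 ± 0.18). Serpinb6a (-0.59 ± 0.10) and Cst3 (3.84 ± 0.12) code for other protease inhibitors, and Serpina1 was not well above background. Cap1 was the one gene of the 5 family lists and the list of regulators whose unadjusted value was under 0.05, and it was not called (adjusted p = 0.497 by limma).

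Regulators of granule genes were detected in 5 of 7 cases, beside the same 45.7%. They were Cebpb (5.38 ± 0.21), Cebpd (2.60 ± 0.24), Cebpe (0.33 ± 0.22), Spi1 (1.87 ± 0.19) and Runx1 (2.11 ± 0.05), all transcription factor genes of myeloid cells. Cebpe, the factor known for driving secondary granule genes such as Camp and Lcn2, was thus detected beside both of them. Of 13 measured genes on the list of other neutrophil granule proteins, however, 12 failed the detection flag throughout, among them Ltf, Ngp and Mmp8. Whether Cebpe acts on any of these genes in these cells was not tested. Cebpa, a factor of early granulocyte development, and Gfi1, a repressor of the same lineage, were not well above background. In bulk RNA, fewer cells that carry a transcript and less of it per cell cannot be told apart.

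Markers of other cells were set beside these values and the same share of all genes. Of 7 measured neutrophil markers, 1 was detected on all 4 arrays, the chemokine receptor gene Cxcr1 (-1.11 ± 0.13), while Csf3r, Cxcr2, Ltf, Prtn3, Ctsg and Mmp8 were not well above background on any. None of 7 eosinophil and mast cell markers was detected on any array. Lung epithelium had 1 of 7 markers (Sftpa1) on 1 array, and lymphoid cells 1 of 4 (Cd3d) on 3 arrays. Of 10 macrophage markers, 6 were detected on all 4 arrays, with Cd68 at 4.62 ± 0.14, and Marco, Adgre1 and Cd163 on none.

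**Figure D4:**
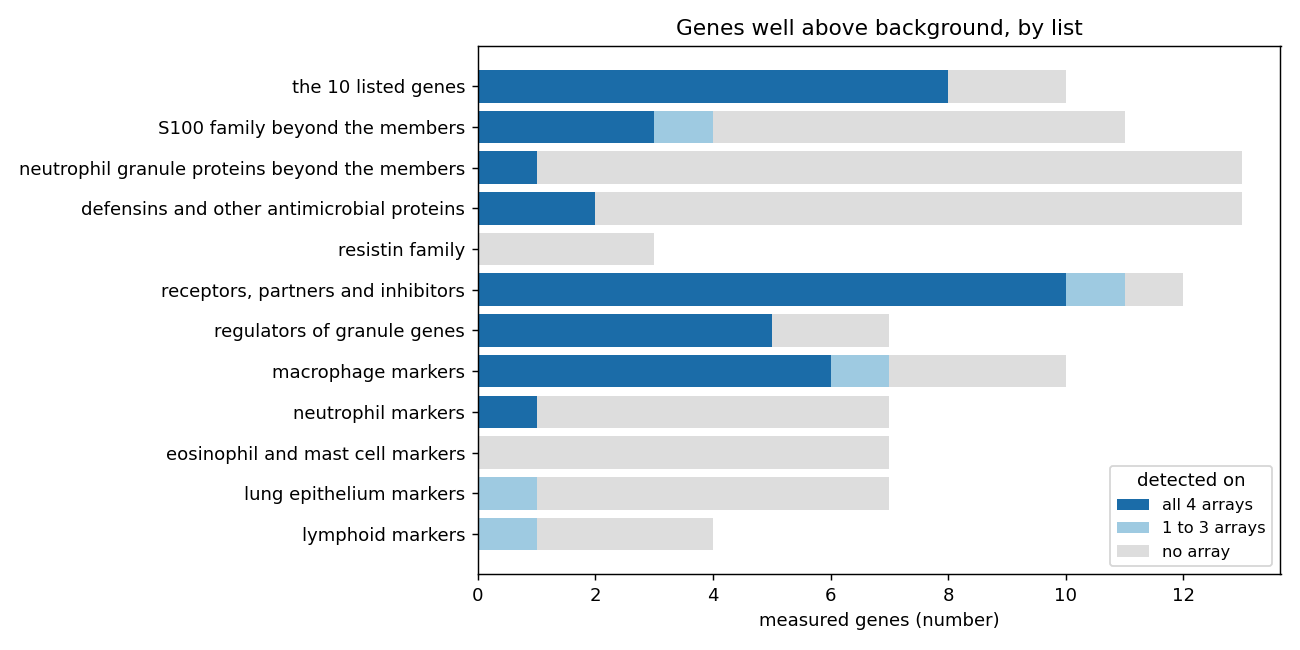
Number of measured genes of each list that were well above background on all 4 arrays, on 1 to 3 arrays or on none. The 10 listed genes stand at 8 of 10 and the receptors at 10 of 12. The list of other neutrophil granule genes stands at 1 of 13 and the neutrophil markers at 1 of 7. That granule list shares genes with the neutrophil markers and with the eosinophil and mast cell markers.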

How the data were processed

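Total RNA of 4 exposed cultures was read on 4 one-colour Agilent arrays of 62976 spots, 58717 of them not controls. The deposited intensity values, per the file headers, are the scanner software's processed signals (Agilent Feature Extraction 11.0.1.1), which subtract background, correct for position within the array and carry no scaling between arrays. Spots the software flagged as outliers (634 to 669 per array) were left out, log2 signals were set against the array's 75th percentile of the remaining non-control spots, and spots of a probe were averaged. Accessions, without versions, named 21109 of 45598 probes through RefSeq's gene table of assembly GRCr8. The brightest probe stood for a gene. The percentile was first taken over all non-control spots, the wording of the design. It was changed to leave out flagged spots after the results of both, and of a percentile over distinct probes, had been seen, to match an earlier processing of these arrays. The design's wording called 27 genes and the one used 39, no member under either, and S100a6 stood apart by Dixon's ratio only under the latter of these. The other deposited columns used were 0/1 flags, single-spot error estimates, and median spot and background intensities, per the file headers.

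Each gene's variance over 4 arrays (3 degrees of freedom) was divided by limma's prior variance (limma 3.58.1, R 4.3.3, trend on level, robust, prior degrees of freedom 24.3), tested one-sided with F, and called where the Benjamini-Hochberg adjusted p was under 0.05. The test was tested on simulated data for 7570 genes. Named were all members with every probe, and of the related lists the genes detected on all 4 arrays. Members and lists were chosen with earlier results of these data known. No gene was named for a like pattern, since 4 arrays are too few for a correlation. The number of arrays limits the precision. Alternatives were other scalings, normexp (offset 50) on median signals, other detection flags, filters, priors and probe choices, and each replicate left out. No table of protein sequences and no probe sequences were used here.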

Additional observations from a re-analysis of the deposited data

Results flagged for a closer look

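S100a6 was flagged because replicate 4 stood apart from the other arrays, at 0.72 against 0.49, 0.51 and 0.53. The ratio of its gap to the range was 0.83, just past the critical value of Dixon's test for 4 samples. This rests on the choice of percentile, which was made after the data were seen: with the percentile first used, over all non-control spots, the ratio was 0.807 and S100a6 would not be listed here. Chance flags about 1 in 20 such groups, 5.46% of all genes tested were past that value, and none of the other 7 members was. The ratio was 0.874 with the percentile of distinct probes, 0.807 also where outlier spots were kept throughout, 0.796 with quantile normalization, 0.288 with the percentile of detected probes, 0.598 with normexp, where replicate 1 was the one apart, and 0.431 before scaling, where replicate 2 was. The software's correction for position multiplied the only S100a6 spot by 1.36 on replicate 4, against 1.11, 1.14 and 1.20 on replicates 1 to 3. Before that correction the spot read 550, 433, 669 and 504 units on replicates 1 to 4. The part of the correction in this flag was not tested.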

How the results depend on the processing

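Of the 10 members, 8 were detected with the lenient flag, on at least 1 array, with outlier spots kept and without any 1 replicate. Beyond column 72 alone 6 were, because Lcn2 and Slpi were printed only in the left part, as was S100a9. Related genes detected numbered 21 of 59, 29 with the lenient flag, 23 when 1 array sufficed, 15 beyond column 72, and 21 to 22 without 1 replicate. No member was called more variable by limma's prior variance under any setting run. Unadjusted p under 0.05 in that limma test was reached with quantile normalization by Lyz2 (0.0420) and S100a4 (0.0253), beside 503 of all 7570 genes tested. Beyond column 72 it was reached by S100a8 (0.0497), beside 315 of all 4963 genes tested there. Genes called over the whole table numbered 39. They numbered 206 with normexp, 19 with quantile normalization, 127 with no filter on dim genes, 63 with every probe tested, 9 with a prior that was not robust, 0 without a trend (467 unadjusted by limma) and 0 with the percentile of detected probes (403 unadjusted). With settings chosen after seeing the data they numbered 84 with the percentile of distinct probes, 21 beyond column 72, 1 without scaling and 27 with outlier spots in the percentile, the setting first used. Without 1 replicate they ranged from 10 (replicate 3) to 77 (replicate 2), with 16 without replicate 4. The cause was not tested. Levels depend on the reference: Camp, at 2.11, lay at 0.39 with detected probes and at 4.74 with distinct probes as the reference. No paired analysis was possible because the samples form 1 group.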
